A study of Mus musculus with 16 samples.

Results

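The genes examined here were 10 inducible inhibitors of Toll-like receptor (TLR) signaling, found by symbol among the 54532 genes of the deposited tables. They were chosen with earlier results of these data known. They were Nfkbia, Nfkbie, Nfkbiz, Tnfaip3, Tnip1, Tnip3, Socs1, Socs3, Irak3 and Zc3h12a. Bulk RNA sequencing had been performed on mouse pulmonary endothelial cells (ECs) in 2 experiments with 16 libraries, and the question asked of each was how the genes differed between its groups. In the first, male WT C57/BL6J mice of 8 weeks received saline (n = 4) or 10 mg/kg lipopolysaccharide (LPS, n = 6) intratracheally. In the second, Fgfr1 loxP/loxP mice (n = 3) and VE-cadherin-CreERT2 Fgfr1 loxP/loxP mice, called Fgfr1 iΔEC/iΔEC (n = 3), were all given tamoxifen and then 2 mg/kg LPS intratracheally, so this experiment had no saline group. All cells were taken 24 h after instillation. VE-cadherin drives the Cre recombinase in ECs, and these mice were adult, with their age in weeks not given in the sources used here. ECs were enriched on magnetic beads, by depletion of cells with CD45 (the product of Ptprc, on leukocytes) and selection of cells with CD31 (the product of Pecam1), which platelets and some leukocytes also carry.

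LPS, a glycolipid of the outer membrane of Gram-negative bacteria, is sensed by TLR4 with CD14 and MD-2. The adaptors MyD88 and TRIF then activate the transcription factor NF-κB, which switches on cytokines, adhesion molecules and also the genes of its own inhibitors. These inhibitors act at different steps: IRAK-M at the receptor complex, A20 and its partners on ubiquitin chains, the IκB proteins on NF-κB itself, SOCS proteins on the cytokine receptors further on, and Regnase-1 on the messenger RNAs that result.

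Values are FPKM (fragments on a gene, scaled by gene length and by library size), a level that can be compared between genes. Each saline library had 13478726 to 18807007 reads on genes (median 16458086), and the numbers were 17840221 to 19043015 per LPS library (median 18798972), 15969575 to 17002788 per loxP/loxP library and 16642177 to 16943522 per iΔEC/iΔEC library. The labels do not say whether a library is 1 mouse or a pool, and the p-values measure the spread between these libraries.

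The contents of the libraries moved with the treatment. All 10 endothelial markers were read in every library, with Cldn5 as the most abundant, and their summed level was 4073 ± 1004 FPKM (SD, n = 4) in saline and 2663 ± 771 FPKM (n = 6) in LPS. The summed level of 6 leukocyte markers, led by Coro1a, was 147 ± 69.2 FPKM in saline and 1387 ± 376 FPKM in LPS, a ratio of 9.41. Ptprc, the gene of the depleted surface protein, stood at 6.97 ± 3.13 FPKM in saline and 34.6 ± 11.4 FPKM in LPS. The 12 macrophage markers, led by Lyz2, summed to 761 ± 351 and 3904.5 ± 1025 FPKM, and the 9 neutrophil markers, led by S100a9, to 448 ± 609 and 2933 ± 1918 FPKM. Over all genes tested, 11.9% were called higher in LPS and 6.79% lower, by the limits given with the members below. Of the markers tested, 6 of 6 leukocyte, 11 of 12 macrophage, 6 of 9 neutrophil and 3 of 4 erythroid genes were called higher, whereas 4 of 10 endothelial, 3 of 7 lymphocyte, 2 of 10 epithelial, 2 of 7 mural and 0 of 6 fibroblast genes were called lower. In most libraries of this experiment the most abundant genes of the last 4 lists were Cd79a (lymphocyte), Sftpc (epithelial), Acta2 (mural) and Col3a1 (fibroblast). Because the samples are bulk, a change in the number of cells of a type and a change in RNA per cell cannot be told apart.

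Saline 1 stood apart from the other saline libraries. Its neutrophil markers summed to 1347 FPKM, against 70.9, 298 and 76.3 FPKM in saline 2, 3 and 4, and its leukocyte markers to 238 FPKM, against 150.0, 71.5 and 130 FPKM. It also had the highest endothelial sum, 5484 FPKM, and the highest epithelial sum, 2973 FPKM. Values are therefore given with and without this library where it decides them.

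The inhibitors were higher in the EC fraction of the LPS group than in that of the saline group, which differed in leukocyte content as given above. All 9 that were above the filter on low values in saline were called higher, and Tnip3, which passed the filter only through the LPS group and so had to differ, is given as a description. The calls rest on limma with log2(FPKM + 1) and ask for a p of 0.05 or less after Benjamini-Hochberg adjustment over 14893 genes and a log2 fold change of 1 or more, limits that 11.9% of the genes tested met in the same direction (1768 genes, against 1011 or 6.79% called lower) and 10.8% of the 14222 genes above the filter in saline. The median log2 fold change of the 9 genes was 2.43, and that of all genes tested was 0.01. In 7 of the 9 genes every LPS library lay above every saline library, which held for 21.1% of the genes above the filter in saline (22.7% of all genes tested). Without saline 1 this held for 9 of 9 and for 27.5% of those genes. The inhibitors were listed as inducible and chosen with earlier results of these data known. Their counts beside these shares are therefore a description. Nfkbia lost its call with quantile normalization (log2 fold change 0.81, adjusted p = 0.0487) and with no filter on low values (1.39, adjusted p = 0.0505). The genes called higher were 63.6% of all calls, and this split moved to 1366 higher and 1326 lower with quantile normalization, to 1373 and 1440 with scaling on total reads, and to 4908 and 170 with scaling on the endothelial markers. These scalings put the median of all genes at -0.08, -0.14 and 0.64, and that of the 9 inhibitors at 2.02, 2.25 and 3.17.

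**Figure D1:**
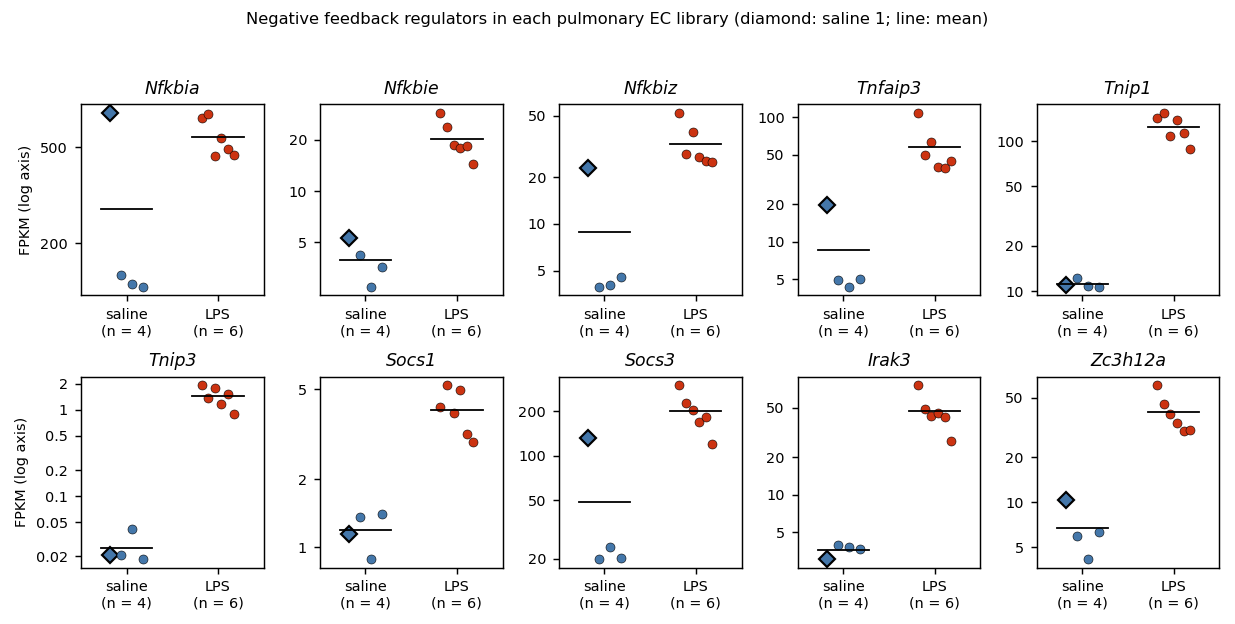
FPKM of the 10 inhibitors on log axes, 1 point per library, with the group means as lines and saline 1 as a diamond. LPS libraries lie above all saline libraries except for Nfkbia and Socs3, where saline 1 reaches 693 and 131 FPKM.

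Promoter windows of 300 bases, from 250 before to 50 after a start site (RefSeq, GRCm38.p6), were found for 9 of the 10 genes, with 11 windows in all. Nfkbiz had no entry. The κB consensus, the DNA motif that NF-κB binds, was searched on both strands and was found in 5 of these 11 windows and in 8.46% of all 32851 windows. It lies in Nfkbia, Nfkbie, Tnfaip3, Tnip1 and Tnip3. The STAT site TTCNNNGAA was found in Tnip1 and Socs3 (8.30% of all windows) and the AP-1 site TGANTCA in Nfkbie and Tnfaip3 (7.81%). The stretches around κB matches are shown because, of the 3 motifs searched, this is the one that the largest number of these genes share. The Socs3 stretch, which holds a STAT site, is shown as well. Capitals mark the match, a κB consensus in the first 5 and a STAT site in the last, and in Tnip1 the capitals cover 3 overlapping matches. A second κB match in Tnfaip3, 125 bases before the start site, the STAT site in Tnip1, 199 bases before it, and the AP-1 sites are not shown.
Nfkbia, chr12:55492648-55492701, minus strand: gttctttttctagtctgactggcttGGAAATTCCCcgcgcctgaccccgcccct
Nfkbie, chr17:45555569-45555628, plus strand: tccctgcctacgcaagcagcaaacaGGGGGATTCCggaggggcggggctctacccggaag
Tnfaip3, chr10:19015411-19015447, minus strand: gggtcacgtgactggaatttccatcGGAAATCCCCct
Tnip1, chr11:54962962-54963023, minus strand: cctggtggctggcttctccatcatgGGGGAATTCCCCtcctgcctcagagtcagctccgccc
Tnip3, chr6:65590319-65590378, plus strand: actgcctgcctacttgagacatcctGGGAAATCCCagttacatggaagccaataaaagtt
Socs3, chr11:117969487-117969545, minus strand: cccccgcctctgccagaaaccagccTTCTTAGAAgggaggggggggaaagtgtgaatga
The first bases of these matches lie 29, 106, 12, 58, 54 and 154 bases before the start site in the order shown. For Tnfaip3, Tnip3 and Socs3 the RefSeq start site used, and the stretch shown, lie inside the gene span given below. None of the 3 motifs was found in the windows of Socs1, Irak3 and Zc3h12a. A match describes these letters and shows no binding.

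The receptor-proximal inhibitor Irak3 encodes IRAK-M, a kinase-like protein that keeps IRAK1 and IRAK4 from leaving the receptor complex. The gene spans chr10:120141648-120202130 on the minus strand and overlaps Gm47009 and Tmbim4 on the other strand. The strand setting of the libraries was not given in the sources used here, so reads shared by overlapping genes cannot be told apart. Irak3 stood at 3.04, 3.93, 3.81 and 3.65 FPKM in saline 1 to 4 and at 26.7 (lowest), 44.0 (median) and 75.2 FPKM (highest) in LPS. The groups did not overlap, and saline 1 was the lowest library here. Irak3 had a log2 fold change of 3.31 (SE 0.22, adjusted p = 1.44e-06). The highest level was in LPS 1, which had the highest leukocyte sum (1898 FPKM), and the lowest LPS level was in LPS 6, which had the lowest (773 FPKM). Whether leukocytes carried part of the difference was not tested.

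**Figure D2:**
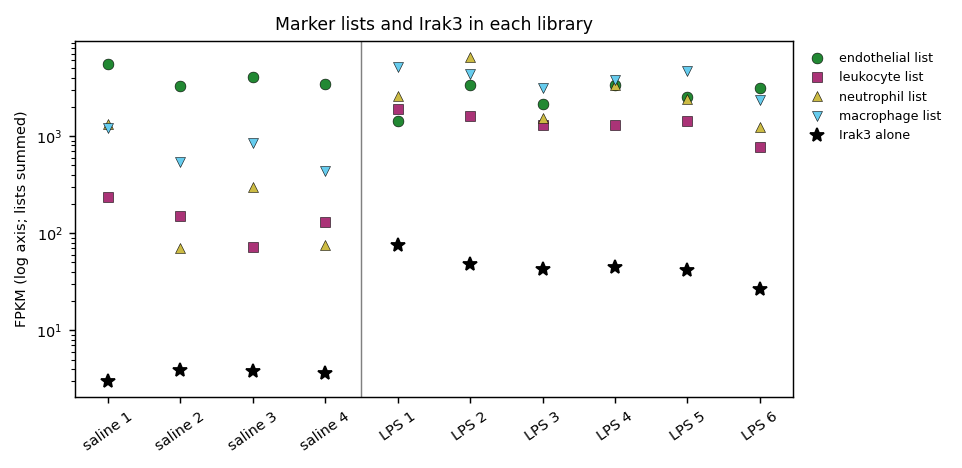
Summed FPKM of 4 marker lists and the FPKM of Irak3 alone in each of the 10 libraries of the first experiment, on a log axis. Irak3 lies between 3.04 and 3.93 FPKM in saline and between 26.7 and 75.2 FPKM in LPS, and the leukocyte list is also higher in every LPS library.

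The A20 group acts on ubiquitin chains. Tnfaip3 (chr10:19000910-19015657) encodes A20, which edits the chains that link the receptor to the IκB kinase. It stood at 19.8, 4.89, 4.34 and 4.99 FPKM in saline 1 to 4 and at 39.0, 47.2 and 108 FPKM in LPS (lowest, median and highest). The groups did not overlap, saline 1 was about 4 times the other saline libraries, and LPS 1 was well above the other LPS libraries. The log2 fold change was 2.79 (SE 0.40, adjusted p = 0.000212) and was 3.25 without saline 1.

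Tnip1 (chr11:54910785-54962917, overlapping Gm12230 on the other strand) encodes ABIN-1, which binds both A20 and ubiquitin chains. It stood at 11.02, 12.2, 10.9 and 10.7 FPKM in saline 1 to 4 and at 88.9, 125 and 154 FPKM in LPS. The saline libraries lay close together, with saline 1 among them, and every LPS library was far above them. The log2 fold change was 3.33 (SE 0.16, adjusted p = 2.34e-07), and was 3.33 without saline 1.

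Tnip3 (chr6:65525313-65634040) encodes ABIN-3, a related A20-binding protein. It stood at 0.0208, 0.0207, 0.0410 and 0.0186 FPKM in saline 1 to 4, from 3 to 8 reads per library, and at 0.895, 1.44 and 1.92 FPKM in LPS. The groups did not overlap, and since the gene passed the filter on low values only through its LPS libraries, no test of it is given. Its log2 fold change of FPKM + 1 was 1.24, which understates a change from so low a level. Over all libraries it had 20 reads in saline and 1689 in LPS, a ratio of 57.3 after scaling by library size, given as a description.

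The IκB proteins hold NF-κB or alter its action in the nucleus. Nfkbia (chr12:55489410-55492647) encodes IκBα, which keeps NF-κB in the cytoplasm and is quickly made anew after activation. It was the most abundant of the 10 genes in every group. It stood at 693, 147, 135 and 132 FPKM in saline 1 to 4 and at 459, 518 and 689 FPKM in LPS. Saline 1 was above all 6 LPS libraries, while the other saline libraries were below all of them. The log2 fold change was 1.39 (SE 0.42, adjusted p = 0.0167). It was 1.98 without saline 1 (adjusted p = 2.06e-05). Without saline 2, 3 or 4 it was 1.23, 1.19 and 1.18, with adjusted p of 0.0544, 0.0547 and 0.0581, so that the call was lost in each case.

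Nfkbie (chr17:45555703-45563169) encodes IκBε, a slower partner of IκBα. It stood at 5.29, 4.19, 2.74 and 3.59 FPKM in saline and at 14.4, 18.6 and 28.8 FPKM in LPS. The groups were well apart, with a log2 fold change of 2.10 (SE 0.19, adjusted p = 1.13e-05).

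Nfkbiz (chr16:55811375-55838899) encodes IκBζ, a nuclear protein that restrains some NF-κB targets and is needed for others such as Il6. It stood at 23.0, 3.94, 4.04 and 4.58 FPKM in saline 1 to 4 and at 25.02, 27.6 and 52.0 FPKM in LPS. The groups did not overlap, but saline 1 lay just under the lowest LPS library. Nfkbiz changed by 2.10 on the log2 scale (SE 0.42, adjusted p = 0.00164), and by 2.66 without saline 1.

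The SOCS proteins bind activated cytokine receptors and the JAK kinases. Socs3 (chr11:117966079-117970047), the inhibitor of receptors that signal through gp130 and of the G-CSF receptor, stood at 131, 19.9, 23.9 and 20.4 FPKM in saline 1 to 4 and at 120.0, 193 and 299.6 FPKM in LPS. Saline 1 was above LPS 6, and the groups overlapped there only. The log2 fold change was 2.48 (SE 0.48, adjusted p = 0.00140), and 3.12 without saline 1. Socs1 (chr16:10782240-10785536), the inhibitor of interferon receptors, stood at 1.14, 1.35, 0.886 and 1.398 FPKM in saline and at 2.91, 4.05 and 5.19 FPKM in LPS. It was low in both groups, which did not overlap, and its log2 fold change was 1.19 (SE 0.15, adjusted p = 0.000100).

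Zc3h12a (chr4:125118423-125127840) encodes Regnase-1, an endoribonuclease that degrades messenger RNAs of cytokines such as Il6. It stood at 10.3, 5.91, 4.18 and 6.33 FPKM in saline and at 29.8, 36.6 and 60.6 FPKM in LPS. Every LPS library was above every saline library, at a log2 fold change of 2.43 (SE 0.24, adjusted p = 1.78e-05).

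**Figure D3:**
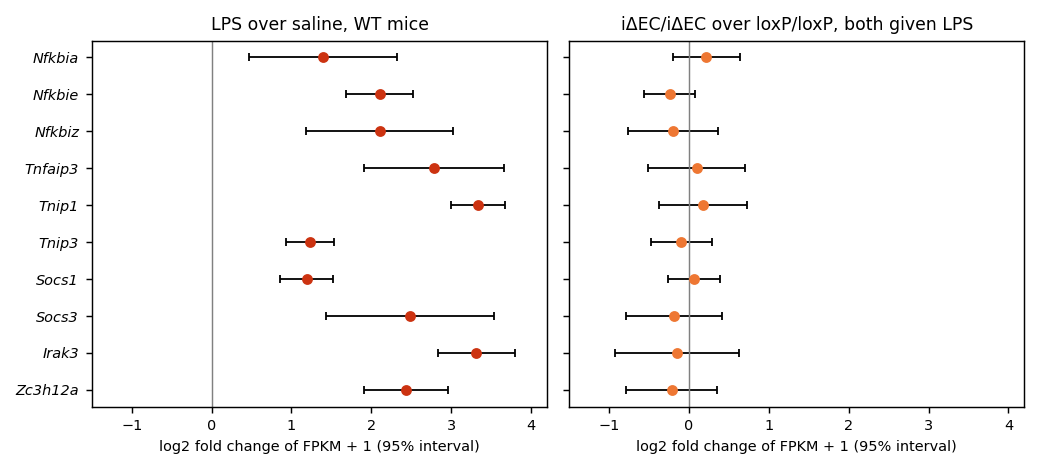
Log2 fold changes of FPKM + 1 with 95% limma intervals from the unpaired fit, for LPS over saline in WT mice (left) and iΔEC/iΔEC over loxP/loxP with LPS in both (right). On the left the points lie between 1.19 for Socs1 and 3.33 for Tnip1 and the intervals reach from 0.46 (Nfkbia) to 3.80 (Irak3), and all 10 intervals on the right include 0. Tnip3 passed the filter on low values only through the LPS group on the left, and its mean reached it only in loxP/loxP on the right. Its intervals are therefore a description and no test.

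The 10 genes split by what saline 1 did. In this library Socs3 was 6.13 times, Nfkbiz 5.49 times, Nfkbia 5.02 times and Tnfaip3 4.18 times the mean of the other saline libraries, whereas 5.73% of the genes tested were at least 3 times higher there. Zc3h12a was at 1.89 times and Nfkbie at 1.51 times. Tnip1, Socs1, Irak3 and Tnip3 were at 0.978, 0.944, 0.802 and 0.776 times that mean, and of these Irak3 was lower in saline 1 than in each of the others. Against saline 2, 3 and 4 only, the mean of the LPS libraries was 4.00 times for Nfkbia, 7.84 for Nfkbiz, 9.37 for Socs3, 12.1 for Tnfaip3, 11.01 for Tnip1 and 12.3 for Irak3. Nfkbia was thus the single member whose saline 1 level was above the LPS mean. What set saline 1 apart was not tested. The sums of all 9 marker lists were above the mean of the other saline libraries in it. They were at 9.07 times that mean for the neutrophil list, 2.77 for the mural, 2.37 for the erythroid, 2.04 for the leukocyte, 1.99 for the macrophage, 1.87 for the epithelial, 1.52 for the endothelial, 1.24 for the lymphocyte and 1.22 for the fibroblast list. The sum of 16 NF-κB target genes was at 6.61 times its mean in the others, while Irak3 and Tnip1, which were also raised in LPS, were not above that mean in it.

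**Figure D4:**
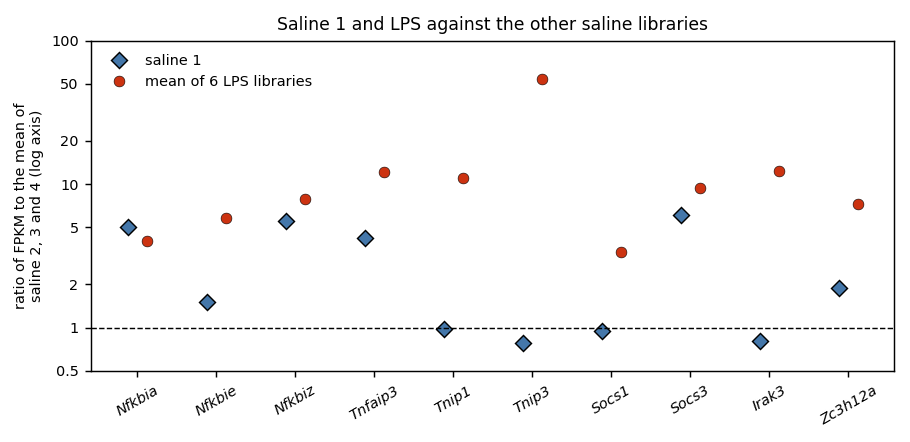
Level of each inhibitor in saline 1 (diamonds) and mean level of the 6 LPS libraries (circles), as a ratio to the mean of saline 2, 3 and 4, on a log axis with a dashed line at 1. Saline 1 is at 4.18 to 6.13 for Nfkbia, Nfkbiz, Tnfaip3 and Socs3 and at 0.776 to 0.978 for Tnip1, Tnip3, Socs1 and Irak3.

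Within the LPS group the same libraries were often at the ends of the range. LPS 1 was the highest for 7 of the 10 genes (all but Nfkbia, Tnip1 and Socs1, for which LPS 2 was the highest), and LPS 6 was the lowest for 7 (all but Nfkbia, Tnfaip3 and Zc3h12a). LPS 1 also had the lowest endothelial sum of the group, 1431 FPKM, and LPS 6 an endothelial sum of 3113 FPKM. The part of cell content in this order was not tested.

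By level in the LPS group the order was Nfkbia (552 ± 101 FPKM, SD, n = 6), Socs3 (201 ± 60.5), Tnip1 (124 ± 24.7), Tnfaip3 (57.4 ± 26.5), Irak3 (46.7 ± 15.9), Zc3h12a (40.0 ± 11.7), Nfkbiz (32.8 ± 10.7), Nfkbie (20.4 ± 5.08), Socs1 (4.06 ± 0.928) and Tnip3 (1.44 ± 0.379). Only Nfkbia over Socs3, Nfkbie over Socs1 and Socs1 over Tnip3 were neighbours whose ranges over the libraries did not overlap. Compared within each library, Socs3 over Tnip1, Tnip1 over Tnfaip3, Zc3h12a over Nfkbiz and Nfkbiz over Nfkbie also held in 6 of 6. Irak3 over Zc3h12a held in 5 of 6 and Tnfaip3 over Irak3 in 4 of 6. In saline Irak3 (3.61 ± 0.394 FPKM, n = 4) ranked below Tnip1 (11.2 ± 0.704), Nfkbiz, Tnfaip3, Zc3h12a and Nfkbie, and in this run of genes each overlapped with its neighbour. Within single saline libraries, Zc3h12a was above Nfkbie in 4 of 4 and Tnip1 above Nfkbiz in 3 of 4. Tnfaip3 over Zc3h12a and Nfkbie over Irak3 held in 2 of 4, and Nfkbiz over Tnfaip3 in 1 of 4. The order of these means rests on saline 1. In saline 2, 3 and 4 Irak3 (3.80 ± 0.143 FPKM, n = 3) ranked above Nfkbie (3.504 ± 0.726), which it overlapped, and just below Nfkbiz (4.18 ± 0.344), which it did not. Tnip1 (11.3 ± 0.849) was there apart from the next gene, Zc3h12a (5.47 ± 1.14).

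For the 3 genes with the largest change on the log2(FPKM + 1) scale, the genes of most similar pattern were sought by the root mean square difference of these log2 values, each gene relative to its own saline mean, over the 10 libraries. Closest to Tnip1 were Plin2 (0.199), the coat protein of lipid droplets, and Irak3 itself (0.213). Closest to Irak3 were Evi2a (0.189) and Cyth4 (0.199), and closest to Tnfaip3 were Gm43181 (0.266) and Soat2 (0.285).

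Other genes of the pathway were taken from lists that were also chosen with earlier results of these data known. Of 42 further inhibitors of TLR, cytokine or NF-κB signaling that were listed, 40 were tested. Il10 and Cd200r1 passed the filter only through the LPS group, so no call of them is given. The log2 fold change of Il10 was 2.18, given as a description. Of the other 38, 12 were called higher, against 10.8% of all genes above the filter in saline, and 0 lower, with a median log2 fold change of 0.28. The largest of these were Il1rn, the soluble antagonist of the IL-1 receptor (1.01 ± 1.31 to 156 ± 82.3 FPKM, log2 fold change 6.32, adjusted p = 1.44e-06), Il1r2, the decoy receptor (4.59, adjusted p = 0.00225), Ptpn6, the phosphatase SHP-1 of blood cells (3.77, adjusted p = 5.27e-06), Nfkbid (2.15) and Atf3 (2.13). Il1r2 overlapped between the groups, because saline 1 was at 59.5 FPKM and the other saline libraries between 0.308 and 0.763 FPKM.

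On the activating side, 6 of 22 genes from the receptor to NF-κB that were above the filter in saline were called higher (against the same 10.8%) and 0 lower, with a median log2 fold change of 0.41. Cd14, the LPS co-receptor, went from 25.9 ± 46.5 to 498 ± 252 FPKM (5.76, adjusted p = 0.000268), with 95.7 FPKM in saline 1 and 2.16 to 3.42 FPKM in the others. Nfkb2 (2.03) and Myd88 (1.98) followed. Ticam2 (1.92) passed the filter only through the LPS group and is left out of this count. Of 16 genes of the receptors and kinases that SOCS proteins act on, all above the filter in saline, 4 were called higher and 1 lower. The shares beside these are the same 10.8% called higher, and 6.79% of all genes tested called lower. Those called higher were Csf3r (3.09), Il10ra (2.85), Il6ra (2.36) and Il10rb (1.23). The 1 called lower was Il6st, which encodes gp130 (62.0 ± 7.09 to 29.8 ± 7.38 FPKM, log2 fold change -1.06, adjusted p = 0.000710). Of 10 NF-κB target genes above the filter in saline, 9 were called higher (median 3.51), led by Ccl3 (6.96), Ccl4 (6.18) and Cxcl2 (6.08). In saline the SD exceeded the mean for Cxcl2 (34.4 ± 64.2 FPKM, n = 4), Ccl4 (2.88 ± 3.48 FPKM) and Csf3r (20.5 ± 26.2 FPKM). The summed level of all 16 listed NF-κB targets in LPS was 14.3 times that in saline, and 34.3 times without saline 1. Il6, Tnf, Cxcl1, Ccl2 and Csf3 passed the filter only through the LPS group, where they were higher, with Ccl2 at 0.108 ± 0.107 and 52.7 ± 15.3 FPKM. Vcam1, the gene of the 10 that was not called, was at 5.38 ± 1.41 FPKM in saline and 8.84 ± 3.34 FPKM in LPS.

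In the second experiment the targeted gene was examined first. Fgfr1 stood at 2.90, 2.91 and 2.59 FPKM in loxP/loxP 1 to 3 and at 0.683, 1.41 and 1.15 FPKM in iΔEC/iΔEC 1 to 3. The genotypes did not overlap, in the direction of the labels, with a log2 fold change of -0.88 (SE 0.16, adjusted p = 0.960). No gene of the 14944 tested was called in either direction (0% of genes tested, limma), 663 had an unadjusted p under 0.05, and limma-voom called 0 with 614 under this p.

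None of the inhibitors other than Tnip3 was called between the genotypes, and none had an unadjusted p under 0.05 by either tool. Their adjusted p ranged from 0.960 to 0.978 by limma. Tnip3, whose mean reached the filter only in loxP/loxP mice, is given as a description. The groups were apart in 1 of the 10 genes, against 10.2% of the genes tested. That gene was Nfkbia, at 404, 402 and 354 FPKM in loxP/loxP 1 to 3 and 419, 512 and 424 FPKM in iΔEC/iΔEC 1 to 3. The iΔEC/iΔEC level was the higher in 3 of 3 same-numbered pairs, as for 18% of the genes tested, with a log2 fold change of 0.22 (95% interval -0.20 to 0.64).

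Nfkbie lay at 19.1, 18.2 and 15.4 FPKM in loxP/loxP and 13.5, 13.6 and 17.0 FPKM in iΔEC/iΔEC mice (log2 fold change -0.24, interval -0.56 to 0.08). Nfkbiz lay at 22.0, 32.6 and 35.4 FPKM and at 19.8, 32.1 and 26.4 FPKM (-0.19, interval -0.76 to 0.37). Both groups overlapped in each gene. Nfkbiz and Tnip3 were lower in iΔEC/iΔEC in 3 of 3 pairs, as were 12.8% of the genes tested, with log2 differences of only -0.02 in the pair numbered 2. Tnip3 lay at 0.501, 0.720 and 0.530 FPKM and at 0.301, 0.691 and 0.473 FPKM (-0.10, interval -0.47 to 0.28). Its mean reached the filter of 0.5 FPKM in loxP/loxP (0.583) and not in iΔEC/iΔEC mice (0.488), so its values are a description.

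Irak3 ranged widely within the genotypes, from 23.6 to 38.5 FPKM in loxP/loxP and from 16.3 to 38.5 FPKM in iΔEC/iΔEC mice (-0.15, interval -0.93 to 0.63). The mean levels of the other genes in loxP/loxP and iΔEC/iΔEC mice were 46.2 ± 15.1 and 48.5 ± 9.49 FPKM for Tnfaip3, 87.1 ± 19.6 and 98.1 ± 22.1 FPKM for Tnip1, and 145 ± 28.9 and 129 ± 33.4 FPKM for Socs3 (SD, n = 3). They were 5.23 ± 0.608 and 5.55 ± 0.888 FPKM for Socs1, and 30.7 ± 9.03 and 26.0 ± 5.26 FPKM for Zc3h12a. Over the 10 genes the 95% intervals, as ratios of FPKM + 1, reached down to 0.525 (Irak3) and up to 1.65 (Tnip1). The intervals were narrower for other genes, such as Socs1, from 0.833 to 1.31. At the low level of Socs1 the added 1 itself draws such ratios toward 1.

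**Figure D5:**
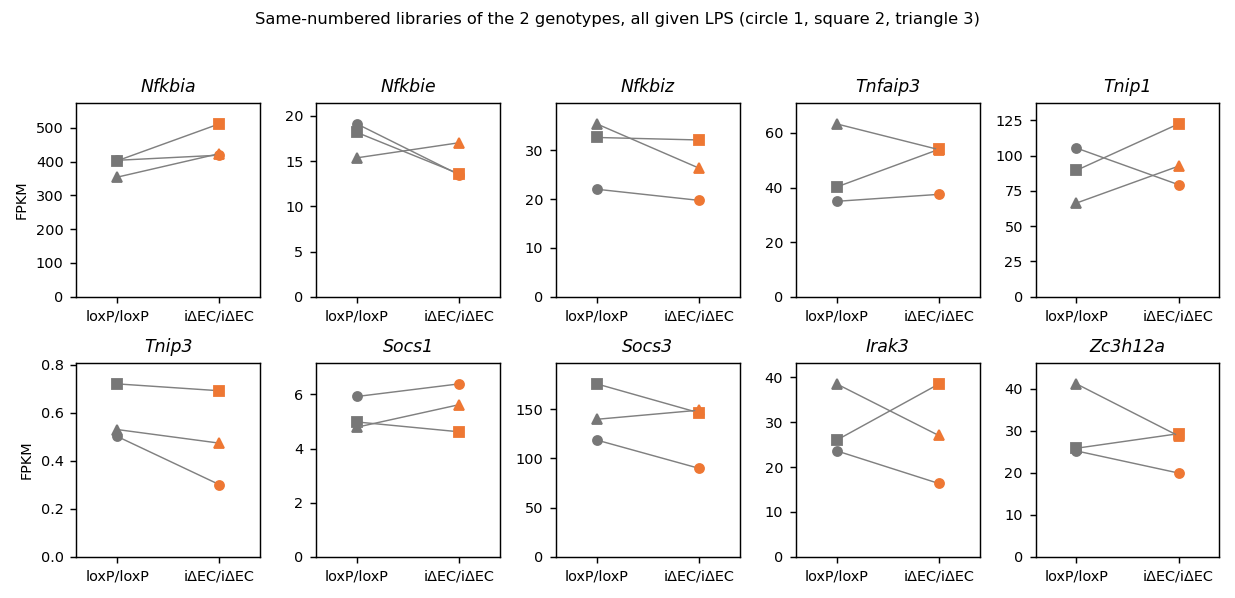
FPKM of the 10 inhibitors in the LPS-treated loxP/loxP and iΔEC/iΔEC mice, with axes from 0, 1 point per library and lines between libraries of the same number. Nfkbia is the one gene whose genotypes do not overlap, and Nfkbiz and Tnip3 are lower in iΔEC/iΔEC in all 3 pairs.

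In the iΔEC/iΔEC group the libraries again differed together. iΔEC/iΔEC 1 was the lowest for 9 of the 10 genes, all but Socs1, and also had the lowest leukocyte sum, 342 FPKM, against 781 and 456 FPKM in iΔEC/iΔEC 2 and 3. iΔEC/iΔEC 2 was the highest for 7 genes. Between the genotypes the endothelial sum was 2536 ± 314 FPKM in loxP/loxP and 3214 ± 540 FPKM in iΔEC/iΔEC mice, the leukocyte sum 585 ± 83.3 and 527 ± 228 FPKM, the neutrophil sum 2019 ± 770.4 and 1526 ± 831 FPKM, and the macrophage sum 2351 ± 967 and 1985 ± 789 FPKM. The epithelial sum differed most among these lists, 1894 ± 1003 and 849.6 ± 327 FPKM, a ratio of 0.449, with 10 of 10 markers lower on average and 0 called. Their part in the levels of the inhibitors was not tested. Of the other inhibitors, the activating genes, the SOCS-regulated receptors and the NF-κB targets, 0 of 40, 0 of 23, 0 of 16 and 0 of 15 were called.

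Set side by side, the 10 mg/kg and the 2 mg/kg experiments gave the following mean levels in LPS-treated mice without the Cre. The tables had been normalized separately, the mice differed in genotype and the loxP/loxP mice had been given tamoxifen, so no test was made. The leukocyte sum also differed, 1387 ± 376 FPKM in WT and 585 ± 83.3 FPKM in loxP/loxP mice, and its part was not tested. Nfkbia stood at 552 ± 101 FPKM in WT and 387 ± 28.4 FPKM in loxP/loxP mice, and Socs3 at 201 ± 60.5 and 145 ± 28.9 FPKM. Irak3 stood at 46.7 ± 15.9 and 29.4 ± 8.02 FPKM and Tnip3 at 1.44 ± 0.379 and 0.583 ± 0.119 FPKM. Socs1 was the one gene with the higher mean in the loxP/loxP mice, 5.23 ± 0.608 against 4.06 ± 0.928 FPKM.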

How the data were processed

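Per the labels and the study's methods, the authors sequenced bulk RNA on a NovaSeq, aligned reads to GRCm38 with HISAT2 (2.0.5) and counted them with featureCounts (1.5.0-p3). They deposited FPKM with gene lengths, in 1 table per experiment. The annotation release and strand setting were not given in the sources used here. The read numbers behind FPKM were recovered from the gene length (100% whole within 0.02). Symbols of 11 genes differed in the second table, and those of the first were used. No table was rescaled. log2(FPKM + 1) was compared within each table by limma (3.58.1, R 4.3.3; lmFit, and eBayes with an intensity trend) and Benjamini-Hochberg adjusted, where the mean over the libraries of the table reached 0.5 FPKM (14893 and 14944 genes). All 10 members passed this filter in both tables. Genes were called at an adjusted p of 0.05 or less and a log2 fold change of 1 or more in either direction.

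The members and all gene and marker lists were chosen with earlier results of these data known. Besides the members, the rule named the called genes with the largest rise and those with the largest fall (up to 6 each in the wider inhibitor list and 4 each in the other lists), Fgfr1, Ptprc, Pecam1 and the most abundant marker of each list. Pecam1 was at 400.3 ± 81.5 FPKM in saline and 358 ± 76.8 FPKM in LPS. Vcam1, Sigirr, the further genes named as passing only through the LPS group and other values named for saline 1 were chosen after their values were seen.

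Same-numbered libraries of the second table deviated together (r = 0.248, 0.177 and 0.187 across genes, which are not independent), each library most with its own number, so the numbers were taken to pair them. Same-numbered libraries of the first table did not deviate together (0.10, -0.16, -0.21 and -0.12). Alternatives were another pseudocount, filter, fold limit, scaling or tool, the replicate number as a block, and each library left out. Tables and figures used Python 3.11.15, pandas 2.3.3, scipy 1.17.1 and matplotlib 3.10.9.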

Additional observations from a re-analysis of the deposited data

Results flagged for a closer look

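In 6 of the 20 groups of member values that were searched for a distant library (each of the 10 genes in saline and in LPS), 1 library lay farther off than a gap of this kind usually reaches. Chance alone gives about 1 such group in 20. In 4 of them the library was saline 1, the highest of 4 for Nfkbia (693 FPKM), Nfkbiz (23.0 FPKM), Tnfaip3 (19.8 FPKM) and Socs3 (131 FPKM). LPS 1 was the highest of 6 for Tnfaip3 (108 FPKM). Saline 3 was the highest of 4 for Tnip3 (0.0410 FPKM), which rests on 8 reads.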

How the results depend on the processing

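With LPS, 8 or 9 of the 9 members other than Tnip3 were called higher and 0 lower under every alternative. Of their 162 values, 157 kept direction and call. The other 5 were Nfkbia, with no filter on low values (log2 fold change 1.39, adjusted p = 0.0505), quantile normalization (0.81) and leaving out saline 2, 3 or 4. Tnip3 could not be tested with a filter of 2 FPKM, and was at 5.72 by limma-voom. Genes called higher numbered 4399 with no fold limit and 4908 with scaling on the endothelial markers. Genes called lower numbered 1840 with a pseudocount of 0.1, 3529 with no fold limit, 170 with scaling on the endothelial markers and 2008 by limma-voom. Leaving out 1 library gave 1641 to 1947 genes higher and 910 to 1107 lower. With the replicate block 1925 genes were higher and 1063 lower. Between genotypes 0 members and 0 genes were called under every alternative, the replicate block included, which left the members' log2 fold changes as they were, gave them adjusted p of 0.703 to 0.890 and changed no call. Genes under an unadjusted p of 0.05 numbered 1150 with it and 663 without. By limma, 1 member was under this p with scaling on the endothelial markers and 1 with scaling on total reads. The same held without loxP/loxP 3 and without iΔEC/iΔEC 3, and no member was under it in the other settings. Of 138 member values 127 kept their direction. Scaling on the endothelial markers turned Nfkbia to -0.058, Tnfaip3 to -0.18, Tnip1 to -0.10 and Socs1 to -0.17, with the median of all genes at -0.20. Leaving out 1 library also turned direction, over ranges of -0.077 to 0.34 (Tnfaip3), -0.0088 to 0.32 (Tnip1), -0.026 to 0.17 (Socs1), -0.32 to 0.048 (Socs3), -0.43 to 0.16 (Irak3) and -0.34 to 0.0061 (Zc3h12a). Apart from the number of genes or libraries these settings change, the cause was not tested.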

Other observations

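Of the 40 further inhibitors tested, 6 were at least 3 times the mean of the other saline libraries in saline 1, against 5.73% of all genes tested. These were Dusp1, Zfp36, Atf3, Il10, Il1rn and Il1r2, of which Il10 had a saline mean under the filter (0.23 FPKM). The median ratio was 1.2 over the 40 and 1.03 over all genes tested. Dusp1, a phosphatase of MAP kinases, stood at 499 FPKM there, at 79.7, 104 and 80.8 FPKM in saline 2, 3 and 4, and at 416 ± 162 FPKM (SD, n = 6) in LPS. Zfp36, which encodes the messenger RNA decay factor tristetraprolin, stood at 149 FPKM in saline 1, at 38.3 to 47.6 FPKM in the other saline libraries and at 152 ± 50.2 FPKM in LPS. Atf3, a stress-induced repressor, stood at 23.1 FPKM in saline 1, at 2.62 to 5.07 FPKM in the others and at 29.3 ± 4.69 FPKM in LPS. Bcl3, a nuclear IκB protein, was at 15.4 FPKM in saline 1, at 8.38 to 9.43 FPKM in the others and at 35.6 ± 6.90 FPKM in LPS. Ccl2, a chemokine, was listed at 0 in saline 1, at 0.0446 to 0.238 FPKM in the others and at 52.7 ± 15.3 FPKM in LPS. The genes given with values here were chosen after their values were seen.

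The membrane inhibitor Sigirr was at 21.9 ± 1.71 FPKM in saline and 12.02 ± 2.83 FPKM in LPS with groups apart (log2 fold change -0.84, adjusted p = 0.00156 by limma), short of the fold limit.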
